A study of Arabidopsis thaliana with 6 samples.

Results

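Inside the inverted repeat of the *Arabidopsis* chloroplast genome, *ndhB* and *rps7* lie beside the 3′ exons of *rps12*, and *ycf2* lies on the opposite strand nearby. These 4 RNAs were chosen by name, for their place in the repeat, from 73 chloroplast mRNAs measured by DO-RIP-Seq, in which a nuclease trims the RNA before it is co-immunoprecipitated and sequenced. Every row of the deposited table with these gene names was taken, 7 of 77: *ndhB.1*, *ndhB.2*, *rps7.1*, *rps7.2*, *rps12*, *ycf2.1* and *ycf2.2*, the suffixes marking copies. Wild-type Columbia-0 seedlings, 14 days old and kept in long days at 21 °C on soil with vermiculite, were cross-linked with formaldehyde, and the lysate was treated with RNase I. The 3 input libraries hold RNA fragments of the mix of extract and antibody-coated beads and carry no antibody label. The 3 pellet libraries hold the fragments left on the beads with affinity-purified anti-CP31A after washing. Both groups share genotype, age, growth, cross-link and nuclease, and the pellet of each replicate was set against the input with the same number. Libraries with non-specific immunoglobulins and nuclear transcripts were not analysed here, and formaldehyde also links proteins to each other, so a fragment in the pellet need not touch CP31A itself.

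CP31A is a nuclear-encoded chloroplast ribonucleoprotein with RNA recognition motifs, and proteins of this family bind many plastid mRNAs and are known for stabilizing them. Its possible ligands in the repeat serve different machines. NdhB is a membrane subunit of the NDH complex, which passes electrons from ferredoxin to plastoquinone around photosystem I. Ribosomal proteins S7 and S12 belong to the small subunit of the plastid ribosome, S7 in its head and S12 near the decoding site. Ycf2 is a very large, essential protein of the inner envelope, linked to protein import. Plastid genes are transcribed together, and *rps7* and *ndhB* are known to share precursors that are cut between the genes. *rps12* is known for trans-splicing: its 5′ exon is transcribed elsewhere in the genome and joined to the 3′ exons afterwards.

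In RefSeq's chloroplast sequence (build TAIR10.1) the repeat runs from 84171 to 110434 and again, inverted, from 128215 to 154478. *ndhB* (1539 coding bases in 2 exons, with an intron of 685 nt) covers 94941 to 97164 on the minus strand and 141485 to 143708 on the plus strand. *rps7* (468 nt, no intron) covers 97478 to 97945 (minus) and 140704 to 141171 (plus). The 3′ part of *rps12*, 2 exons with 258 coding bases around an intron of 537 nt, covers 97999 to 98793 (minus) and 139856 to 140650 (plus), while its 5′ exon of 114 nt stands at 69611 to 69724 (minus), outside the repeat. *ycf2* (6885 nt, no intron) covers 86474 to 93358 on the plus strand and 145291 to 152175 on the minus strand. In each copy, *rps12* is followed after 53 nt by *rps7*, and *rps7* after 313 nt by *ndhB*, all on the same strand.

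**Figure D1:**
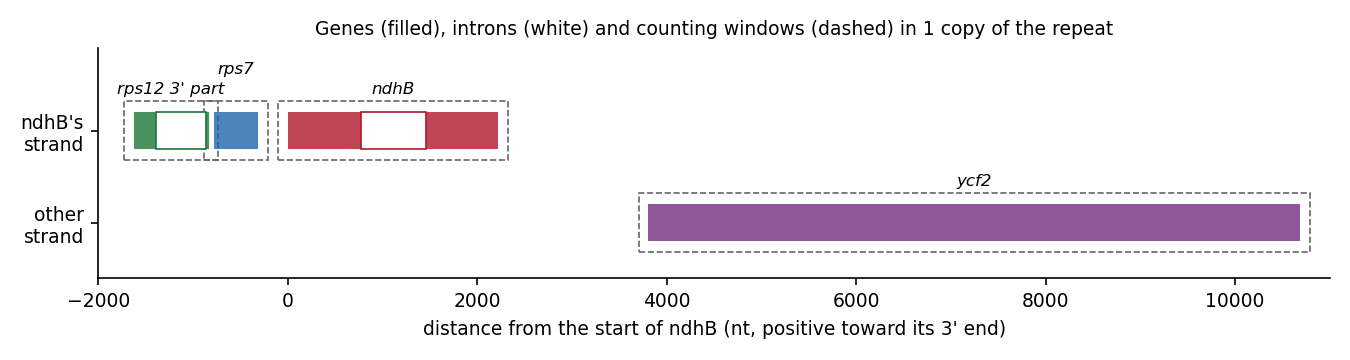
Genes of 1 copy of the inverted repeat against distance in nt from the start of *ndhB*, with genes filled, introns white and counting windows dashed. The windows of *rps12* and *rps7* share 147 nt, and the *ndhB* and *ycf2* windows overlap none of the others.

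Since introns were counted with the exons, the exon ends of *ndhB* and *rps12* are printed to show what the windows contain. Capitals mark exon bases and lower case intron bases, read 5′ to 3′ on the minus strand of the copy that starts at 84171, or, for the 5′ exon, of its single-copy locus. The *ndhB* stretches lie at 96373 to 96402 and 95688 to 95717, and those of *rps12*, in the order printed, at 69596 to 69625, 98779 to 98808, 98547 to 98576 and 98010 to 98039.
ndhB exon-intron: GACGTATACGAAGGAgtgcggttcgtttga
ndhB intron-exon: cttttcgactctgacTCTCCCACTCCAGTC
rps12 5′ exon end: TGTACTCGGGTGTATgtgcgactcgtttag
rps12 middle exon start: tctgtcaacttttccACTATCACCCCCAAA
rps12 exon-intron: AACAAGGGCGTTCTAgtgcgttgtagattc
rps12 intron-exon: cgagatccaccctacAATATGGGGTCAAAA
The 3 intron starts printed here begin with GTGCG, a form of the opening that group II introns are known for. Among the 14 introns of protein-coding chloroplast genes, searched on the coding strand and leaving out the trans-spliced one, 5 (35.7%) began with these letters. The last exon of *rps12* is only 26 nt long (97999 to 98024, minus strand) and is shown whole because it lies wholly inside the window of *rps7*.
rps12 last exon: AATATGGGGTCAAAAAGCCAAAATAA

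The unit of the table is TPM: reads on the coding strand of a gene and 100 nt on each side, divided by the window length and scaled to the same total in each library. The window length and a factor fitted for each library turned the TPM of 76 of the 77 rows into whole reads in all 6 libraries, within 0.0001 reads. These are the smallest whole numbers that match. For *rps12* this held with the 995 nt of the 3′ part and not with the 314 nt of the 5′ exon, so the single row of *rps12* has the length of its exons in the repeat with the intron between them. Reads with a value for 72 RNAs (*psbC* left out) ranged from 22835 to 70065 in the inputs, input 1 having the fewest, and from 239294 to 373208 in the pellets. Over the 4 RNAs, with a single copy of each, inputs 1 to 3 had 311, 1007 and 1271 reads, and pellets 1 to 3 had 8478, 11381 and 13636.

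The windows of *ndhB*, *rps7*, *ycf2* and the 3′ part of *rps12* had 0 mismatches between the copies of the repeat, so a read of 1 copy cannot be told from a read of the other. *ndhB* and *ycf2* had equal reads in both rows in all 6 libraries, so that *ndhB.1* and *ndhB.2*, and *ycf2.1* and *ycf2.2*, hold the same values. The rows of *rps7* differed. *rps7.1* and *rps7.2* had 92 and 95 reads in input 1, 193 and 210 in input 2, 255 and 274 in input 3, and 1555 and 1706, 2282 and 2495, and 2811 and 3105 reads in pellets 1, 2 and 3. *rps7.2* was the higher in all 6 libraries, by 3.16% of its reads in input 1 (95% Wilson interval 1.08% to 8.88%, counting error only) and by 9.47% in pellet 3 (8.49% to 10.5%). The table has 2 rows for *rps7* but only 1 for *rps12*, whose window shares 147 nt with that of *rps7*. Which copy the *rps12* row stands for is not given in the sources used here, and the part of this overlap in the difference was not tested. In log2 enrichment (pellet minus input of the same replicate number), *rps7.1* gave 0.65, 1.15 and 0.94 for replicates 1 to 3 and *rps7.2* gave 0.73, 1.16 and 0.97, so the choice of row moved them by less than the spread between pairs. Below, the rows are averaged to 1 RNA.

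On the TPM scale all 4 RNAs were higher in the CP31A pellets than in the inputs (*rps12* turned to a log2 value of -0.05 when libraries were centred on their medians), and for each of them the lowest pellet lay above the highest input. The same held for 46 of the 73 RNAs (63.0%). With limma on log2 TPM (two-sided, replicate number as a block, p-values adjusted after Benjamini-Hochberg across all 73), 4 of the 4 were enriched (adjusted p under 0.05), against 49.3% of all RNAs, and only *ndhB* was a target (also at least 2-fold), against 34.2% of all RNAs. None of the 4 was depleted, against 1.37% of all RNAs. The median log2 enrichment was 0.93 over the 4 and 0.71 over the 73. *ndhB* had rank 12, *rps7* rank 27, *ycf2* rank 28 and *rps12* rank 34. By single pair, *ndhB* had ranks 6, 21 and 32 for replicates 1 to 3, *rps7* 34, 20 and 21, *ycf2* 29, 31 and 31, and *rps12* 47, 12 and 27. The lead of *ndhB* over *rps7* and *rps12* thus came from replicate 1, while *ndhB* ranked above *ycf2* in replicates 1 and 2. Without replicate 1 the mean of *ndhB* (0.99) was below those of *rps12* (1.11) and *rps7* (1.05), and these became the targets in its place. None of the 4 was called under 3 other scalings of the libraries, and only *ndhB* was without replicate 2 or without replicate 3. Under the paired test of the methods, with p-values adjusted here over all 73, 2 of the 4 were called.

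**Figure D2:**
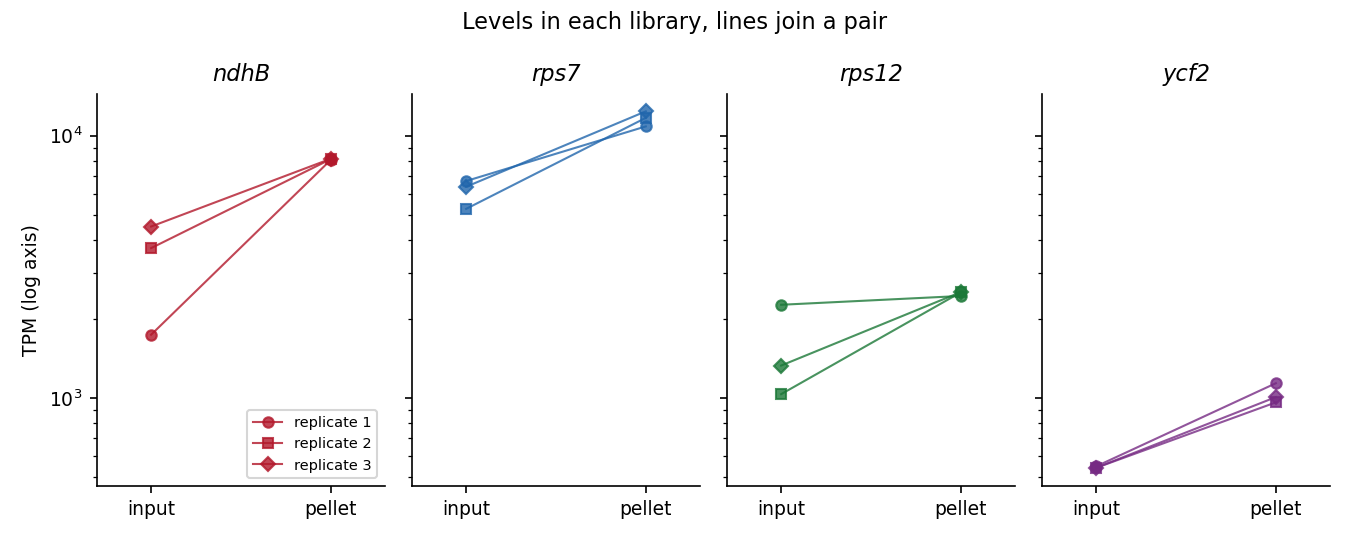
TPM (log axis) of each RNA in the inputs and pellets, with a line for each of the 3 pairs. The pellets of *ndhB* lie together at 8077 to 8158 while its inputs spread from 1740 to 4499, and *ycf2* shows the reverse, with inputs at 541 to 548 and pellets at 961 to 1137.

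*ndhB* stood at 1740, 3722 and 4499 TPM in inputs 1, 2 and 3, from 88, 518 and 677 reads. In the pellets it stood at 8077, 8132 and 8158 TPM, from 4410, 6033 and 7078 reads. Input 1 was the low sample, 1.23 below the mean of the other inputs on the log2 scale, and 4 of the 73 RNAs lay further below. In material of several cell types, fewer cells of a type and less RNA per cell cannot be told apart in an input. The mean rose from 3320 ± 1423 TPM in the inputs to 8122 ± 41.2 TPM in the pellets (SD, n = 3). In log2 terms the enrichment was 2.22 for replicate 1, 1.13 for replicate 2 and 0.86 for replicate 3, and its mean of 1.40 ± 0.72 (SD over 3 pairs) amounts to 2.64-fold. limma gave a standard error of 0.30 and an adjusted p of 0.005. The enrichment did not pass under the paired test of the methods once p-values were adjusted here (adjusted p 0.0725 over 73 RNAs). The cut-off of the paper was a p of at most 0.05 by that test, with no adjustment described. By that cut-off the paper reports every mRNA for an NDH subunit, *ndhB* among them, as significantly enriched. In limma under the 3 other scalings *ndhB* did not pass (limma adjusted p 0.138 to 0.171), and without replicate 1 its value was 0.99.

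*rps7* had the highest TPM of the 4 RNAs in every library. Its inputs stood at 6708, 5254 and 6378 TPM, from 93.5, 201.5 and 264.5 reads as the mean of both rows, and its pellets at 10837, 11682 and 12372 TPM. The pellets lay clear of the inputs in every pairing of libraries. The log2 enrichment of 0.69, 1.15 and 0.96 averaged 0.93 ± 0.23 (SD over 3 pairs), or 1.91-fold, with a limma standard error of 0.23 and an adjusted p of 0.00762. It lost the call without replicate 2 (0.82, limma adjusted p 0.107) and without replicate 3 (0.92, limma adjusted p 0.101).

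*rps12* gave 2264, 1033 and 1328 TPM in inputs 1 to 3, from 47, 59 and 82 reads. Its pellets gave 2445, 2525 and 2530 TPM, from 548, 769 and 901 reads. Here input 1 was the high sample, 0.95 above the mean of the other inputs on the log2 scale, and it came close to the pellets. The enrichment therefore ran from 0.11 in the pair of replicate 1 to 1.29 and 0.93 in those of replicates 2 and 3. Its mean of 0.78 ± 0.60 (SD over 3 pairs), or 1.71-fold with a limma standard error of 0.27, passed narrowly at an adjusted p of 0.041. The call was lost without replicate 2 (0.52, limma adjusted p 0.351) or replicate 3 (0.70, limma adjusted p 0.229), and without replicate 1 it was 1.11.

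*ycf2* has the longest window of the 73 RNAs (7085 nt) and had the lowest TPM of the 4 in every library. Its inputs stood at 547.9, 540.8 and 541.1 TPM, from 81, 220 and 238 reads, and its pellets at 1137, 961.0 and 1006 TPM, from 1814, 2084 and 2552 reads. The log2 enrichment of 1.05, 0.83 and 0.90 averaged 0.93 ± 0.12 (SD over 3 pairs), or 1.9-fold, with a limma standard error of 0.22 and an adjusted p of 0.00747. None of the other 3 RNAs varied so little between pairs. The call was lost without replicate 2 (0.97, limma adjusted p 0.0546) and without replicate 3 (0.94, limma adjusted p 0.0997). With 2 pairs left, limma gave the same standard error to every RNA (0.137 without replicate 1, 0.413 without replicate 2, 0.448 without replicate 3), so calls with a replicate left out do not reflect the spread of *ndhB*, *rps7*, *rps12* or *ycf2* itself. Without replicate 1, 58 of the 73 RNAs passed.

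**Figure D3:**
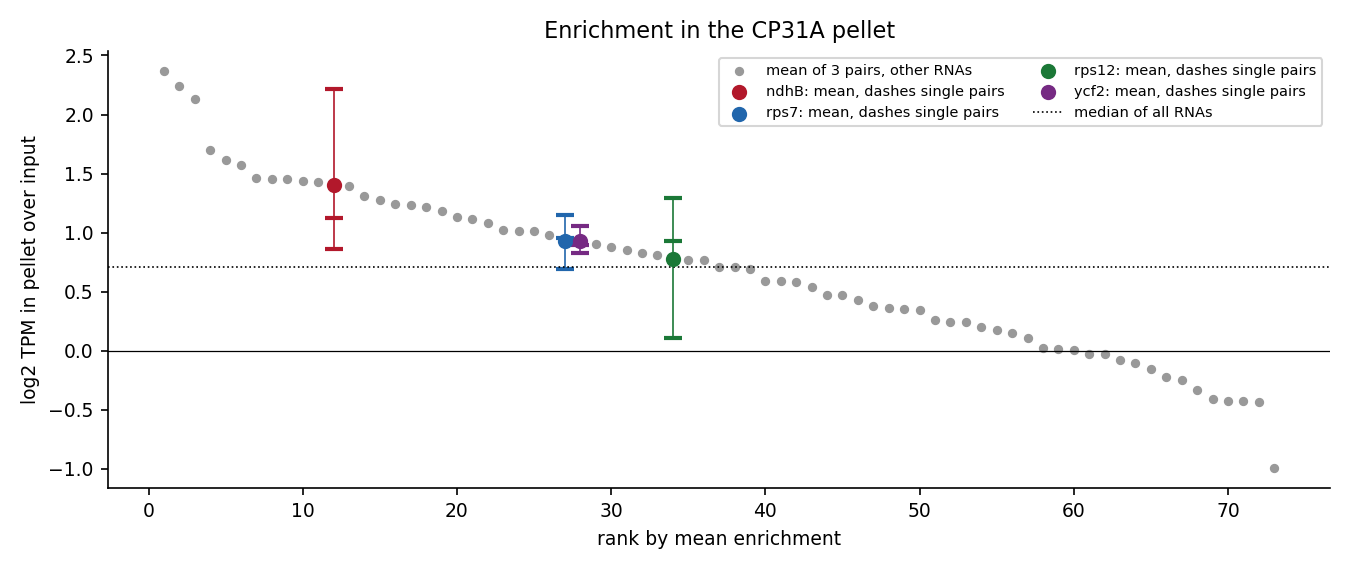
Mean log2 enrichment of the 73 RNAs by rank, with the 4 RNAs of the repeat in colour and their single pairs as dashes. *ndhB* is at rank 12 with a mean of 1.40, and *rps7*, *ycf2* and *rps12* lie at ranks 27 to 34, close above the median of 0.71.

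The spread between libraries differed among the 4. The SD of log2 TPM over the inputs was 0.73 for *ndhB*, 0.58 for *rps12*, 0.19 for *rps7* and 0.01 for *ycf2*, with a median of 0.41 over the 73 RNAs. That of *ycf2* was the lowest of the 73. Counting alone would give *ycf2* an SD of 0.12 at its reads, which is larger than the SD its inputs showed. Over the pellets the order was different. *ndhB* had the lowest SD of the 73 RNAs (0.0073, where counting alone gives 0.019), *rps12* had 0.028, *rps7* 0.096 and *ycf2* 0.12, around a median of 0.09. The pellet SD was below the input SD in 69 of the 73 RNAs, *ycf2* being among the exceptions. The inputs also had fewer reads (22835 to 70065, against 239294 to 373208 in the pellets). The part of depth in the smaller pellet SD was not tested. From the reads alone, the mean enrichment over 3 pairs would carry a standard error of 0.059 for *ndhB*, 0.069 for *rps7*, 0.072 for *ycf2* and 0.11 for *rps12*, each below the value from limma.

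TPM is per length of the counting window, so the 4 windows can be set side by side, but not as levels of spliced mRNA. The windows of *ndhB* (685 of 2424 nt) and *rps12* (537 of 995 nt) include introns. That of *rps12* leaves out its 5′ exon and shares 147 nt with that of *rps7*. The order was *rps7*, *ndhB*, *rps12*, *ycf2* in 5 of the 6 libraries, and in input 1 *rps12* (2264 TPM) stood above *ndhB* (1740 TPM). In the means of the inputs, *ndhB* (3320 ± 1423 TPM) and *rps12* (1541 ± 643 TPM) overlapped in their libraries, while *rps7* lay above both and *ycf2* below both in every library. In the pellets no neighbours in the order overlapped. The input ranks among the 73 RNAs were 23 for *rps7*, 30 for *ndhB*, 51 for *rps12* and 64 for *ycf2*, and the pellet ranks were 21, 27, 49 and 62.

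The proportions of the other RNAs to *ndhB* were close to each other in 5 libraries and different in input 1, for the neighbours *rps7* and *rps12* and for *ycf2* on the opposite strand. The ratio of *rps12* to *ndhB* in TPM was 1.3 in input 1 (exact 95% interval from counting 0.893 to 1.87), 0.277 in input 2 (0.208 to 0.364) and 0.295 in input 3 (0.232 to 0.372). In the pellets it was 0.303, 0.311 and 0.310, all inside the intervals of inputs 2 and 3. The ratio of *rps7* (*rps7.2*) to *ndhB* was 3.92 in input 1 (2.90 to 5.30), 1.47 in each of the other inputs, and the pellets gave 1.4, 1.5 and 1.59. The ratio of *ycf2* to *ndhB* was 0.315 in input 1 (0.23 to 0.431), 0.145 and 0.12 in the other inputs and 0.118 to 0.141 in the pellets. Between the ribosomal genes, *rps12* over *rps7*, the ratio was 0.332 in input 1 (0.229 to 0.476), 0.189 and 0.201 in the other inputs and 0.195 to 0.216 in the pellets. The interval of input 1 overlapped those of inputs 2 and 3 for this ratio and did not for the ratios to *ndhB*. These intervals cover counting error alone and not the spread between extracts. Input 1 had the fewest reads of the 6 libraries, and the part of depth or sample handling in its values was not tested.

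**Figure D4:**
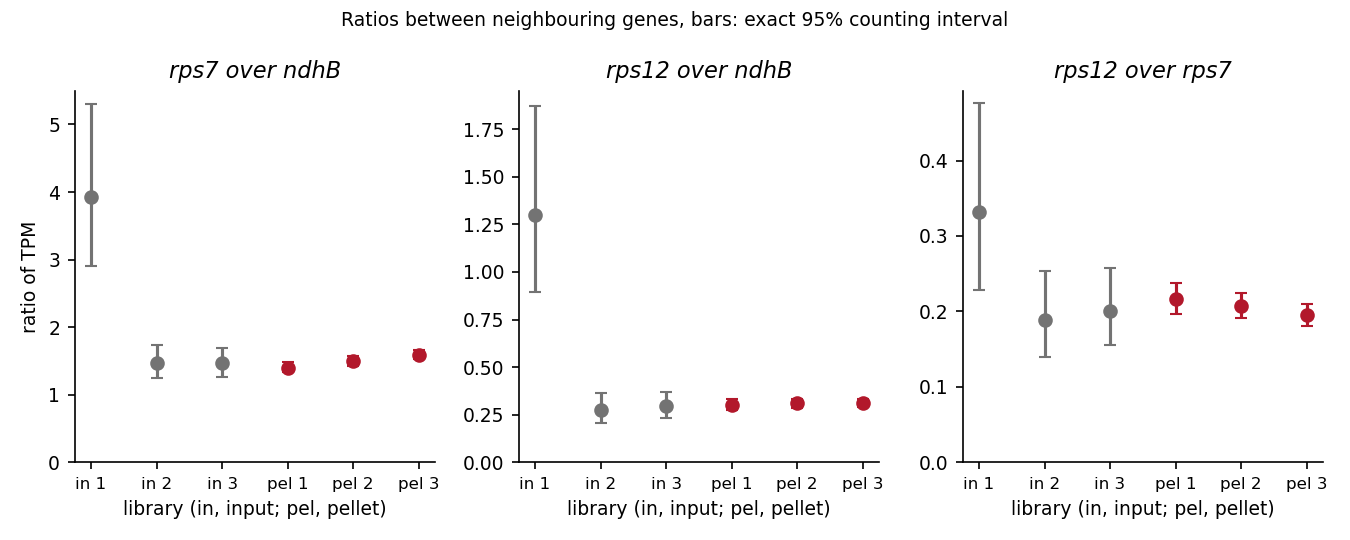
Ratios of TPM between neighbouring genes in each library, with exact 95% counting intervals; grey marks inputs and red pellets. Input 1 stands at 3.92 for *rps7* over *ndhB* and 1.3 for *rps12* over *ndhB*, and the other 5 libraries lie at 1.4 to 1.59 and 0.277 to 0.311.

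To ask whether enrichment differed among the 4 RNAs, the difference in log2 enrichment was taken within each pair, where the scaling of the libraries cancels, and tested with an exact two-sided sign-flip test over 3 pairs. The smallest p that 3 pairs allow is 0.25, so none of the 6 differences could pass. *ndhB* minus *rps7* was 1.52, -0.03 and -0.10 in the pairs of replicates 1, 2 and 3 (mean 0.47 ± 0.92, SD, n = 3 pairs), with exact p = 1. *ndhB* minus *rps12* was 2.1, -0.16 and -0.07 (mean 0.62 ± 1.28, exact p = 1, n = 3 pairs). In both, the mean came from replicate 1 alone and the other pairs had the opposite sign, with means of -0.06 and -0.12 without replicate 1. *ndhB* minus *ycf2* was 1.16, 0.30 and -0.04 (mean 0.47 ± 0.62, exact p = 0.5, n = 3 pairs). *rps7* minus *rps12* averaged 0.16 ± 0.38, *rps7* minus *ycf2* 0.01 ± 0.35 and *rps12* minus *ycf2* -0.15 ± 0.72 (SD, n = 3 pairs), with exact p of 0.75 to 1. Every adjusted p over the 6 differences was 1, and no mean difference exceeded the SD between pairs.

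The other genes of the same machines give the context. All 10 of the other *ndh* mRNAs were enriched and were targets by limma, with a median log2 enrichment of 1.59, from 1.27 for *ndhJ* to 2.37 for *ndhI*, which both encode subunits of the NDH arm that faces the stroma. Of these 10, 4 passed with library medians set to 0, 4 without the most abundant RNAs and 3 by the median of ratios. Under the paired test of the methods, with p-values adjusted here, 6 passed. *ndhB* at 1.40 was above *ndhJ* alone among the 11 *ndh* mRNAs. Of 10 listed mRNAs for the small ribosomal subunit 8 were measured (*rps15* and *rps19* were not analysed here), and 3 were enriched, 2 of them as targets, with a median of 0.56. They ran from -0.24 for *rps18*, which did not pass, to 1.12 for *rps2*, and *rps7* and *rps12* lay between these. Of the other genes listed for the repeat, *rpl2* (ribosomal protein L2) did not pass at -0.10 ± 0.83 (log2, SD over 3 pairs). The *ycf1.1* row, which has the shorter *ycf1* window, was depleted at -0.99 ± 0.28 (log2, SD over 3 pairs, limma adjusted p 0.00726). The row of the long *ycf1* reading frame, *ycf1.2*, was at 0.36 and did not pass (limma adjusted p 0.186). The pellets and inputs of *ycf1.1* overlapped in TPM, and without replicate 3 it did not pass (-0.99, limma adjusted p 0.0817). It was lower in the pellets, and passed, under each of the 3 other scalings (-1.82 to -1.48). *rpl23*, *rps19* and *ycf15* were not analysed here.

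Among 4 other *ycf* rows only *ycf4*, for an assembly factor of photosystem I, was enriched (0.88) and *ycf1.1* was depleted. Of 10 other genes with introns 2 were enriched, with a median of 0.51, from *rpl2* at -0.10 to *ndhA* at 1.61. Of 7 other long reading frames 3 were enriched, with a median of 0.70, from -0.43 for *psaA* (a core protein of photosystem I), which did not pass, to 1.01 for *rpoC2* (a subunit of the plastid RNA polymerase). Under the 3 other scalings 0 RNAs of the small ribosomal subunit, *ycf* and long reading frame lists were enriched, and 1 of the genes with introns was. In the *ycf* list, *ycf1.1* stayed depleted there. These lists are described by counts and medians beside the 49.3% and the median of 0.71 over all RNAs. The windows of *ndhB* and *ycf2* held 37.3% and 37.4% G and C, and those of *rps7* and *rps12* 39.8% and 40.3%, all above the median of 33.9% over the 73 windows.

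The RNAs with the most similar enrichment over the 3 pairs were found by the root mean square difference of log2 enrichment, among 69 other RNAs. For *ndhB* they were *petN* (cytochrome *b*6*f* complex; difference 0.15, with 2.14, 0.98 and 1.06 in the pairs) and *psaI* (photosystem I; 0.18, with 2.00, 0.95 and 0.99). Both were, like *ndhB*, highest in the pair of replicate 1. For *rps7* they were *psbB* (photosystem II, 0.15) and *rps3* (small ribosomal subunit, 0.15). For *rps12* the nearest was *atpA* (ATP synthase, 0.17, with -0.17, 1.29 and 1.02), which like *rps12* was lowest in the pair of replicate 1. For *ycf2* they were *rpoC1* (0.05, with 1.1, 0.78 and 0.84) and *rpoC2* (0.10, with 1.15, 0.98 and 0.91), which encode subunits of the plastid RNA polymerase and also have long reading frames. The median difference to the 69 RNAs was 1.05 for *ndhB*, 0.71 for *rps7*, 0.79 for *rps12* and 0.64 for *ycf2*. The points are 3 pairs of libraries that all RNAs share, and no test was made.

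The size of the enrichment depended on how the libraries were scaled. TPM rest on the total, and *psbA*, *rbcL* and *psbC* had the highest mean TPM in the inputs. Rescaled without these 3, *ndhB* was at 0.92, *rps7* at 0.45, *ycf2* at 0.44 and *rps12* at 0.29, and none passed (adjusted p = 0.163 to 0.329 from limma). When every library was centred on its own median, *ndhB* was at 0.57, *rps7* and *ycf2* were at 0.10 and *rps12* was at -0.05, and none passed. That scaling lowered every RNA by 0.83 on the log2 scale and left 4 of the 73 enriched. By the median of ratios, *ndhB* was at 0.72, *rps7* at 0.25, *ycf2* at 0.24 and *rps12* at 0.09, and again none passed. A rescaling of whole libraries moves all RNAs by the same amount, so the ranks given above hold on each scale.

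**Figure D5:**
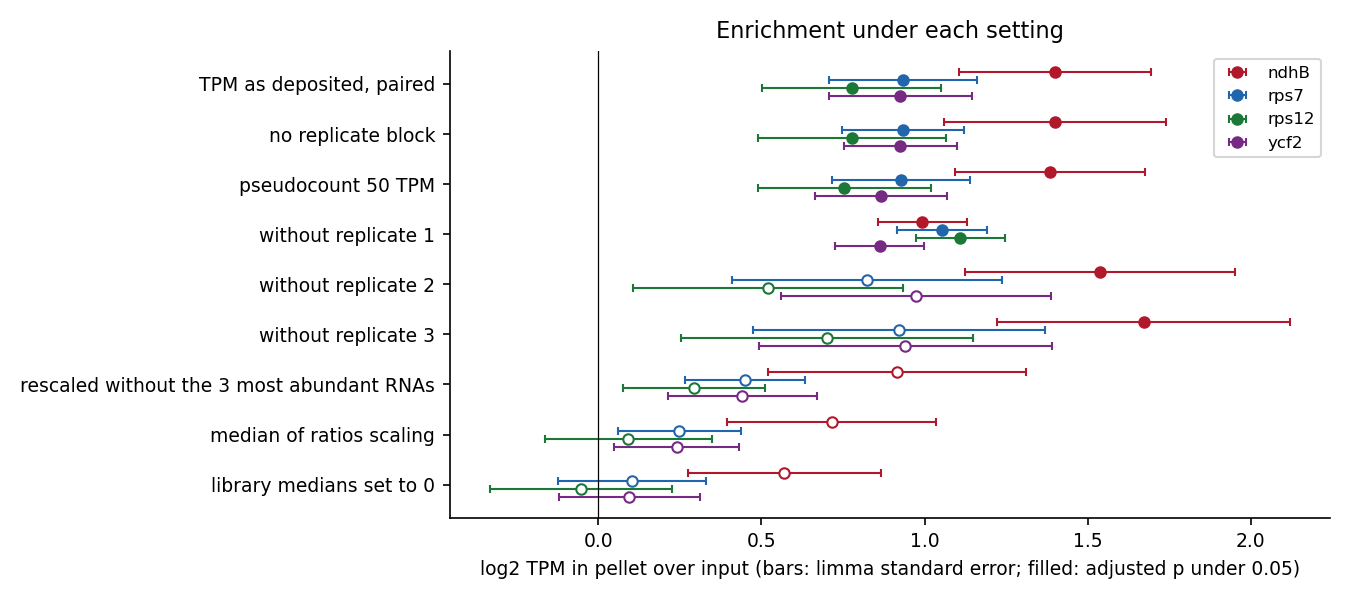
Log2 enrichment of the 4 RNAs under 9 settings, with limma standard errors and filled points for an adjusted p under 0.05. All 4 are filled for TPM as deposited, without the block, with a pseudocount and without replicate 1, only *ndhB* is filled without replicate 2 or 3, and none is filled under the 3 other scalings.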

How the data were processed

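DO-RIP-Seq reads of 3 inputs and 3 pellets were processed by the authors with Trim Galore 0.6.4, UMI-tools 0.5.4 (reads deduplicated by molecular tag), STAR 2.5.3 (TAIR10) and featureCounts over protein-coding chloroplast genes, introns and 100 nt flanks included, and genes with few reads in any library were left out. The authors deposited TPM and log2 TPM for 77 rows. The log2 column matched log2 of the TPM column to 3.55e-15, and TPM summed to 996097 to 998550. The deposited columns of mean enrichment and p-values were not used. Copies in the inverted repeat (*ndhB*, *rps7*, *ycf2*, *rpl2*) were averaged, giving 73 RNAs. No pseudocount or filter was applied.

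The members, gene lists and tests were chosen with earlier results of these data known. Named genes are the members, the highest and lowest of each list, all measured genes of the repeat list and the 2 nearest RNAs of each member (1 of those of *rps12* is not reported here); *psbA*, *rbcL* and *psbC* are named for the scaling. Enrichment was fitted with limma 3.58.1 in R 4.3.3 (replicate as a block, 6.5 prior degrees of freedom). The fit was tried on simulated data with set shifts and no change in library composition, so that trial does not bear on the scaling. The pairing follows the methods; deviations from group means correlated within replicates 1, 2 and 3 at 0.17, 0.30 and -0.03, so the data do not settle it. The paper calls the replicates biological. Chi-square per degree of freedom between libraries of a group was 11.8 to 45.9, so none repeats another. Python 3.11.15, pandas 2.3.3, scipy 1.17.1 and matplotlib 3.10.9 were used. Alternatives changed pairing, test, variance prior, pseudocount, filter, scaling, copies and replicates.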

Additional observations from a re-analysis of the deposited data

How the results depend on the processing

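The 4 enrichments kept their direction and their calls with no replicate block (adjusted p = 0.0104, 0.00435, 0.0492 and 0.00409 from limma for *ndhB*, *rps7*, *rps12* and *ycf2*, with 40 RNAs enriched), with an abundance trend, with a pseudocount of 1 or 50 TPM, and with copies kept apart. Keeping copies apart could move the enrichment of *rps7* only, since the rows of *ndhB* and of *ycf2* are equal. Summing copies raises TPM by the same factor in every library, so it could not change an enrichment. The filter on the upper 75% of RNAs by level removed *ycf2* and kept the other calls. There limma gave *ndhB*, *rps7* and *rps12* the same standard error (0.31), so these calls do not reflect the spread of each RNA.

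With library medians set to 0, *ndhB* was 0.57, *rps7* 0.10, *ycf2* 0.10 and *rps12* -0.053; by the median of ratios they were 0.72, 0.25, 0.24 and 0.092; without the 3 most abundant RNAs they were 0.92, 0.45, 0.44 and 0.29. None of the 4 passed or was a target there (0 in each), and 4, 3 and 5 RNAs were enriched, with 3, 2 and 3 targets. Under the methods' one-sided paired test, adjusted over all RNAs, 2 of the 4 passed, *ndhB* (1.40) and *rps12* (0.78) did not, 0 of the 4 were targets, and 20 RNAs were enriched with 12 targets. Depleted RNAs numbered 1, against 9, 4 and 2 under these scalings in the same order and 0 to 4 with a replicate left out. In that order, these scalings moved every log2 enrichment by -0.83, -0.685 and -0.483. Any further cause of the change in counts was not tested.

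Leaving out a replicate gave 0.99 to 1.67 for *ndhB*, 0.82 to 1.05 for *rps7*, 0.52 to 1.11 for *rps12* and 0.86 to 0.97 for *ycf2*, with 1 to 4 of the 4 enriched, 1 to 2 targets among them, 21 to 58 RNAs enriched and 21 to 26 targets. Differences ran from -0.061 to 0.75 (*ndhB* minus *rps7*), -0.12 to 1.02 (*ndhB* minus *rps12*), 0.13 to 0.73 (*ndhB* minus *ycf2*), -0.056 to 0.30 (*rps7* minus *rps12*), -0.15 to 0.19 (*rps7* minus *ycf2*) and -0.45 to 0.25 (*rps12* minus *ycf2*). With copy 1 only, *rps7* minus *ycf2* was -0.015. Depth limits *rps12* most, with 47 reads in input 1.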
